A study of Mus musculus with 6 samples.

Results

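Of 11 genes that encode myogenic regulatory factors, MEF2 factors and developmental factors upstream of them (Myog, Myod1, Myf5, Myf6, Mef2a to Mef2d, Pax3, Pax7 and Six4), 4 had a row in the deposited comparison of siCon- and siH19-transfected myotubes. Under a rule written with earlier results of these data known, they were matched by gene symbol among 3019 listed features, of which 2549 carry a symbol. Myog, Mef2c and Mef2d were higher after H19 knockdown and Myf5 was lower. The myotubes came from mouse C3H myoblasts, a cell line, and both groups were grown and differentiated alike. After 40 h in differentiation medium they received a control siRNA (siCon) or an siRNA against the H19 lncRNA (siH19), and RNA was taken 48 h after transfection, with 3 libraries of rRNA-depleted total RNA per group. The values are the authors' group values in log2 FPKM (fragments counted per kilobase of transcript and relative to all mapped fragments), 1 per group. Neither replicate error nor library depth can be read from them, and no test was run here. Only features called by the authors are listed, and a gene without a row has no value here.

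Skeletal muscle differentiation is driven by a small family of basic helix-loop-helix factors that pair with E proteins and bind E-boxes. Myf5 and Myod1 commit cells to the muscle lineage, and Myog, the gene for myogenin, switches on the contractile and fusion programme when myoblasts leave the cell cycle. MEF2 factors are MADS-box proteins that bind A/T-rich sites and act together with the helix-loop-helix factors, on the Myog promoter among others.

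The promoter of Myog is shown because E-box, MEF3 and MEF2 motifs lie there together, and that of Myf5 because it is the factor that was lower. The sequences are the 250 bases before an annotated transcript start, taken from RefSeq sequence (GRCm38.p6), at chr1:134289754-134290003 on the plus strand for Myog and chr10:107486135-107486384 on the minus strand for Myf5. The Myf5 start used, 107486134, is also the GENCODE start, and its window lies inside the longer RefSeq gene, which begins at 107486927. The first Mef2c start and the Mef2d start used are likewise those of GENCODE. Both are written 5′ to 3′ in the direction of the gene, and capitals mark matches, on either strand, to the E-box CANNTG, the MEF3 site TCAGGTTTC and CTANNNNTA, a relaxed core of the MEF2 site.
Myog: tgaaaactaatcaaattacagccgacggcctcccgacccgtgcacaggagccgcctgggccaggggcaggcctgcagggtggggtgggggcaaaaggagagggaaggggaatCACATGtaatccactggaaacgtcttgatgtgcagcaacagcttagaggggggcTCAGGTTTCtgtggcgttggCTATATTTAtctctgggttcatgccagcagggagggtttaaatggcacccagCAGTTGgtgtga
Myf5: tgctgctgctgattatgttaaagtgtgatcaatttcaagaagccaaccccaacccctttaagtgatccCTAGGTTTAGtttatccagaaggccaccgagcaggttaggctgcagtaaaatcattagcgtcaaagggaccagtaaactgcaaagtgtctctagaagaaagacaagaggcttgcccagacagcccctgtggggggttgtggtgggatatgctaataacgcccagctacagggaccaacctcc

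The Myog window held 2 E-boxes, CACATG beginning 138 bases before the start and CAGTTG beginning 12 bases before it, with the MEF3 match at 84 bases and the MEF2 match, CTATATTTA, at 64 bases. The GENCODE start of Myog lies 15 bases further upstream, at 134289989, so that CAGTTG is exonic in that annotation. The Myf5 window held 2 overlapping matches to the relaxed MEF2 core, 1 on each strand, and no match to the other motifs. No match was found before the start of Mef2d, while the 3 annotated starts of Mef2c held 2, 0 and 1 E-boxes. The third of these also held a match to the relaxed MEF2 core, CTAACGATA, beginning 191 bases before it. E-boxes are common, being found in 66.2% of 32851 such windows of all genes, and the relaxed MEF2 core was in 6227 of them. The MEF3 letters were in 0.387%. The motifs were chosen with the Myog promoter in mind, and all of them together occurred upstream of 19 genes. Of those 19 genes, Myog was the one listed as a feature with a single symbol, and features with several symbols were not searched for them. Another of them, the lncRNA gene Myoparr on the opposite strand, shares 242 of its 250 bases with the Myog window. A match is a stretch of letters and was not tested for binding.

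**Figure D1:**
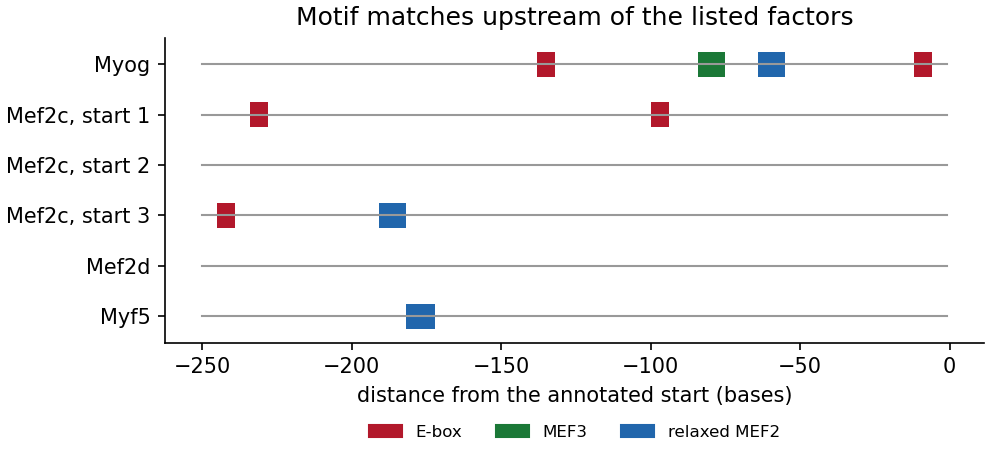
Positions of motif matches in the 250 bases before each annotated start of Myog, Mef2c, Mef2d and Myf5. The x axis is the distance from the start in bases and the coloured blocks are matches to the E-box, MEF3 and relaxed MEF2 letters. The Myog line is the one that carries all of these motifs, between 138 and 7 bases before the start.

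The siRNA target was lower in siH19. H19 had a group value of 11.20 log2 FPKM in siCon and 7.50 in siH19, which is 7.69% of the siCon level. Of 9 myotube marker genes, 6 were listed, where 11.7% of RefSeq protein-coding genes had a row. Ckm, the muscle creatine kinase gene, was at 6.91 log2 FPKM in siCon and 7.67 in siH19, and Mylpf, a fast myosin light chain, at 11.81 and 12.61. Des, Cav3 and Ryr1 were not listed.

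Myog, the gene for myogenin, is the most abundant of the 4 factors in both groups and differed most. Its group value was 7.79 log2 FPKM (221 FPKM) in siCon and 9.22 (596 FPKM) in siH19. The difference of 1.43 on the log2 scale corresponds to a level 2.69-fold higher after H19 knockdown, and rounding of the deposited values to 2 decimals allows 2.68 to 2.71. In bulk RNA, more cells that express a gene and more RNA per cell cannot be told apart. Among the 2549 listed features with a symbol, the difference of Myog ranked 92 from the top, above 96.4% of them, and it ranked 36 on the log2(FPKM + 1) scale. Its level in siCon ranked 55. Of the 55 features at or above that level in siCon, Myog had the largest increase, followed by one of 1.16, and their median was 0.45. The cut is the level of Myog itself, and the actin gene Actc1, just below it at 7.70 in siCon, differed by 2.28. The Myog feature, at chr1:134290004-134292548 on the plus strand, has the same ends as the RefSeq gene, and GENCODE gives 1 transcript with 3 exons.

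Mef2c, the MEF2 factor most closely tied to muscle development, was second in both level and difference. Its group value was 6.07 log2 FPKM (67.2 FPKM) in siCon and 6.91 (120 FPKM) in siH19, a level 1.79-fold higher. This difference of 0.84 on the log2 scale exceeded that of 85.6% of the listed features with a symbol. The Mef2c feature (chr13:83503944-83667093, plus strand) covers a gene with 31 GENCODE transcripts, which the group value does not separate. An isoform switch would therefore not be seen.

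Mef2d, a MEF2 factor with a muscle isoform made late in differentiation, had 4.78 log2 FPKM in siCon and 5.33 in siH19. Its difference of 0.55, or 1.46-fold, exceeded that of 65.6% of the listed features with a symbol. The assembled feature (chr3:88141861-88177785, plus strand) runs 5694 bp beyond the RefSeq end of the gene, and reads from that stretch cannot be told apart from those of the gene. Mef2a and Mef2b were not listed.

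Myf5, the early factor of proliferating myoblasts, was the single member that was lower in siH19. Its group value was 3.41 log2 FPKM (10.6 FPKM) in siCon and 3.03 (8.17 FPKM) in siH19, so that siH19 was at 76.8% of the siCon level. The difference of -0.38 is small for the table, in which the smallest absolute difference of a feature with a symbol is 0.31. The Myf5 feature (chr10:107482908-107488538, minus strand) extends 1611 bp upstream of the RefSeq gene, and the window printed above lies inside that gene. Myf6, the neighbouring gene on chromosome 10, Myod1, Pax3, Pax7 and Six4 had no row.

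**Figure D2:**
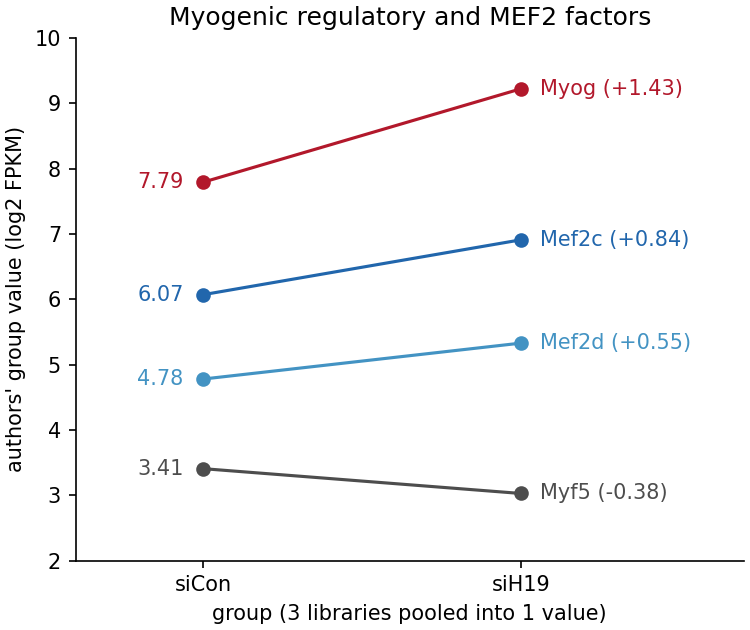
Group values of the 4 listed factors in siCon and siH19, in log2 FPKM, with 1 point per group and the difference in brackets. Myog goes from 7.79 to 9.22 and Myf5 from 3.41 to 3.03, and the order of the 4 is the same in both groups.

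The counts were set against those of the table. The 4 listed genes are 36.4% of the 11, where 11.7% of 21900 RefSeq protein-coding genes had a row, counted with no filter on expression. Of the 4, 3 were higher in siH19, where 60.1% of listed features with a symbol were higher and 39.9% lower. A count over 4 genes is too small to be read as a departure from that share. A difference of at least 1.5-fold was reached upwards by Myog and Mef2c, 2 of 4, against 30.8% of the listed features, and downwards by none of the 4, against 16.3%. The median difference of all 3019 listed features was 0.45 on the log2 scale, and that of the 2549 with a symbol 0.41. Since called features alone are listed, those with a symbol all differing by 0.31 or more, small increases turn negative by construction when such a median is taken off. Relative to 0.45, Myog was higher by 0.98, Mef2c by 0.39 and Mef2d by 0.10, and Myf5 was lower, at -0.83. Relative to 0.41, a reference chosen after seeing the data, Myog was higher by 1.02, Mef2c by 0.43 and Mef2d by 0.14, and Myf5 was at -0.79.

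**Figure D3:**
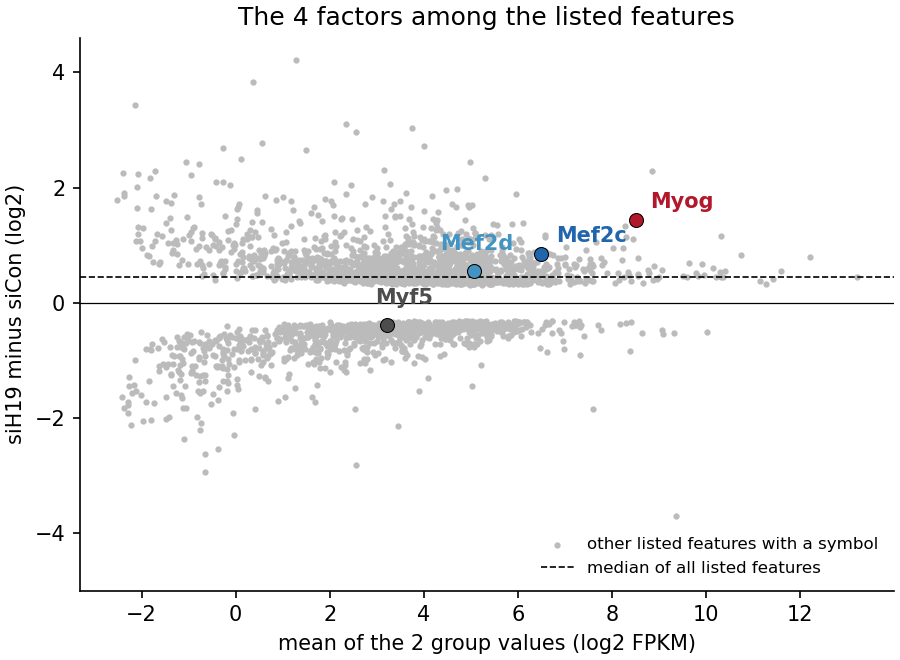
Difference between the groups (siH19 minus siCon, log2) against the mean of the 2 group values (log2 FPKM) for each listed feature with a symbol, with the 4 factors marked. The empty band around 0 is due to the listing of called features only, and Myog, at 1.43, sits above nearly all features of similar level.

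Ratios between the factors inside 1 group do not depend on the scaling between groups. On the FPKM scale, which accounts for transcript length, Myog was 20.8 times as abundant as Myf5 in siCon and 73.0 times in siH19. The ratio of Myog to Mef2c was 3.29 in siCon and 4.96 in siH19. The 2 MEF2 genes kept closer proportions, with Mef2c at 2.45 times Mef2d in siCon and 2.99 times in siH19. The balance between the factors differed most between Myog and Myf5, by 3.51-fold, which follows from the differences given above and is no separate result. No spread between libraries is available for these ratios.

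Genes for proteins that work with the myogenic factors were examined next. Of 27 cofactor genes, 8 were listed, where 11.7% of protein-coding genes had a row. All 8 were higher in siH19 as deposited, where 60.1% of listed features with a symbol were, with a median difference of 0.51, and 6 were higher and 2 lower relative to 0.45, while all 8 were higher relative to 0.41. Tead1, a TEA-domain factor that binds muscle promoters, had the largest difference, from 3.35 log2 FPKM in siCon to 4.50 in siH19 (2.22-fold). Nfix, a nuclear factor I protein of fetal myogenesis, went from 5.28 to 6.01. Ski, a co-repressor that promotes muscle differentiation, went from 4.59 to 5.19, and Smyd1, a muscle-specific histone methyltransferase, from 5.01 to 5.43. None of the E protein genes Tcf3, Tcf4 and Tcf12, whose products pair with myogenin, was listed.

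Of 25 genes whose products oppose the myogenic factors 4 had a row, where 11.7% of protein-coding genes did. As deposited, 3 of them were higher and 1 lower, where 60.1% of listed features with a symbol were higher. Relative to either median, 1 was higher and 3 were lower. Zeb1, a repressor that binds E-boxes, was higher by 0.65 on the log2 scale, from 4.80 to 5.45 log2 FPKM. The helix-loop-helix repressors Bhlhe40 and Bhlhe41 differed by 0.38 and 0.35. Hdac5, a class II deacetylase that holds MEF2 factors inactive, was lower, at 5.05 in siCon and 4.73 in siH19. The Id genes, Twist1, Twist2 and Msc were not listed.

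Genes of the programme that myogenin and MEF2 factors switch on were looked up by list. In the fusion and adhesion list, 7 of 17 genes were listed (background 11.7%) and 10 had no row. Of the 7, 6 were higher (background 60.1%) and 1 lower. Relative to 0.45, 4 were higher, 2 were lower and Cdh2 was at the median, and 5 were higher and 2 lower relative to 0.41. Tmem8c, which encodes the fusion protein myomaker, had 7.85 log2 FPKM in siCon, close to Myog, and 8.59 in siH19, below the 9.22 of Myog. Gm7325, which encodes its partner myomerger, had 6.48 and 6.97, and the adhesion molecules Ncam1 and Jam2 differed by 0.52 and 0.66. Ano5, an anoctamin of muscle membranes, was lower, at 4.38 in siCon and 3.86 in siH19.

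The acetylcholine receptor and its synaptic partners were represented by 4 of 12 genes (background 11.7%), all higher as deposited (background 60.1%), with 2 higher and 2 lower relative to either median. The fetal subunit gene Chrng shares 1 feature with Eif4e2, at 7.45 and 8.10 log2 FPKM, which cannot be divided between them. The adult subunit gene Chrne was low, at 0.57 and 1.29 log2 FPKM. Chrna1, the alpha subunit gene, differed by 0.38 from a level of 8.22, and Agrn, the gene for agrin, by 0.37.

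Contractile and metabolic genes were the best represented list. Of 49 genes, 36 (73.5%) were listed, where 11.7% of protein-coding genes had a row, counted with no filter on expression. They lie in 32 features, since Myh1, Myh2, Myh3, Myh4 and Myh8 share 1 feature. All 32 features were higher in siH19, with a median difference of 0.565, and 24 were higher and 8 lower relative to 0.45, against 28 higher, 3 lower and 1 at the median relative to 0.41. Of the 32, 15 reached 1.5-fold upwards. Over all listed features with a symbol, 60.1% were higher and 30.8% reached that threshold. Actc1, the cardiac alpha-actin also made by young skeletal muscle, differed by 2.28, from 7.70 to 9.98 log2 FPKM, and Casq1, a calcium store protein, by 1.72, from 3.74 to 5.46. The joint feature of Myh6 and Myh7 differed by 1.49. The most abundant of the list, Mylpf, Acta1 and Myl1, had smaller differences of 0.80, 0.56 and 0.42. This direction was known from earlier results on these data when the list was written, and it adds no separate evidence.

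Markers of the state before differentiation were also looked up. Of 14 genes of undifferentiated myoblasts 3 were listed, and all 3 were lower in siH19, where 11.7% of protein-coding genes had a row and 39.9% of listed features with a symbol were lower. Dll1, a Notch ligand, differed by -0.70, Cd82 by -0.42 and Cxcr4 by -0.40. Of 24 proliferation genes, Ccne1, the gene for cyclin E1, was the one listed, at 3.33 and 2.76 log2 FPKM. Of 8 genes of cell cycle exit, Cdkn1a, the gene for p21, was higher by 0.50 and Rb1, the retinoblastoma gene, by 0.73.

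Markers of other lineages were counted in the same way, against the 11.7% of protein-coding genes that had a row, and at these list sizes the counts say nothing about the lineages. None of 8 adipocyte genes had a row. Runx2 was the one listed of 8 cartilage and bone genes and differed by 0.62, Acta2 the one of 7 smooth muscle genes, at 0.47, and Col1a1 and Postn those of 8 fibroblast genes, at 0.41 and 0.69. Relative to 0.45, Col1a1 was lower and the other three were higher, and Col1a1 equals the median of 0.41. The part of such cells in the values of the 4 factors was not tested.

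The features most like Myog were sought by the distance between group values, over the 2 groups. The nearest was Casq2, a calcium store protein, at 7.90 and 9.00 log2 FPKM (distance 0.246). It was followed by Mb, the gene for myoglobin, at 7.61 and 8.95, and by Mybph, a myosin-binding protein, at 7.73 and 8.88. Next were Rpsa, a ribosomal protein gene, and Sh3glb1, a gene for an endophilin, at distances of 0.470 and 0.511. A likeness over 2 values is a description and says nothing of shared control.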

How the data were processed

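RNA-seq libraries of siCon and siH19 myotubes were grouped by their titles, 3 in each group. The authors used the TopHat Alignment app 1.0.0 for mapping to mm10 (TopHat2 2.0.7 is also in the submitters' processing notes), assembled transcripts with Cufflinks 2.1.1 and compared groups with Cuffdiff 2.1.1. The authors deposited log2 FPKM, 1 value per group, rounded to 2 decimals, and all 3019 listed features are marked as significant by them. Another 4 columns (status, fold change, q value and significance) hold the authors' own comparison and were not used for any value. Differences were computed as the siH19 minus the siCon log2 FPKM, with no pseudocount. No values per library were used here, so neither depth nor precision is known, and libraries were not tested.

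Symbols were split at commas and matched to the rule and to 14 gene lists, older symbols included. 1 gene of the rule is not reported here. The members, lists and motifs were chosen with earlier results of these data known. Genes were named where a list had 6 or fewer listed features, otherwise the 3 largest differences and the 3 highest levels were named, with the 5 single-symbol features nearest to Myog. Locus starts were read as 0-based, since start plus 1 equals the RefSeq start for 718 of 2304 features and the start itself for 70. Sequences are from RefSeq (GRCm38.p6, the assembly also called mm10), in which all 4 listed genes were found, and GENCODE M21 gave transcripts. Alternatives were pseudocounts of 1 and 0.1, a minimum of 1 FPKM in the higher of both groups, fold thresholds of 1.5 and 2, single-symbol features, and differences lowered by the median of all listed features or, added after seeing the data, of those with a symbol. Scripts (Python 3.11.15, numpy 2.4.6, pandas 2.3.3, matplotlib 3.10.9) were tested on simulated data.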

Additional observations from a re-analysis of the deposited data

How the results depend on the processing

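The difference of Myog was 1.43 on the log2 scale with pseudocounts of 1 and 0.1 as without, 0.98 when lowered by the median of all listed features, and 1.02 when lowered by that of features with a symbol, an alternative chosen after seeing the data. Its direction and those of Mef2c, Mef2d and Myf5 were the same under each of these alternatives. Of the 4 factors, 3 were higher and 1 lower, and at 1.5-fold 2 were higher and 0 lower, at 2-fold 1 was higher and 0 lower. Of the listed cofactor, fusion, receptor, contractile and cell cycle exit features together, 52 were higher and 1 lower. At 1.5-fold these were 23 and 0, at 2-fold 8 and 0, and after lowering by these medians 38 and 14, and 45 and 7. Over all 2549 listed features with a symbol, 1533 were higher and 1016 lower. At 1.5-fold those were 784 and 415, at 2-fold 248 and 136, and after lowering by the same medians 1123 and 1391, and 1257 and 1256. The rank of the Myog difference was 92 of 2549, 75 of 2377 with a minimum of 1 FPKM in the higher of both groups and 36 with log2(FPKM + 1), which shrinks differences of features near or below 1 FPKM. No paired analysis was possible because the deposited table gives 1 value per group and none per library, and for the same reason no library could be left out.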

Other observations

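The neighbourhood of Myog on chromosome 1 was looked up after its values had been seen. Within 250 kb of Myog, 7 features with a symbol were listed, of which 5 were higher in siH19, where 60.1% of all listed features with a symbol were higher. Mybph and Adora1 share 1 locus that ends 54.6 kb before Myog, and they differed by 1.15 and 1.29 on the log2 scale, values close to that of Myog. Chi3l1, which adjoins them, differed by 0.82 at a low level of 0.70 log2 FPKM in siCon. On the other side, Cyb5r1 and Adipor1 differed by 0.87 and 0.62. Tmem183a, 53.5 kb after Myog, was lower, at -0.34, and so was Btg2, an antiproliferative gene 211 kb before it, from 4.73 log2 FPKM in siCon to 3.43 in siH19. The reads of Mybph and Adora1, which share a locus, may have been split between them. No listed feature with a symbol lay within 250 kb of Mef2c or Myf5, and 1, Slc25a44, within 250 kb of Mef2d.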
